A study of Mus musculus with 12 samples.

Results

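The TAM receptor system, named after *Tyro3*, *Axl* and *Mertk*, was followed in microglia that do or do not express arginase-1 (ARG1). Its 5 genes were chosen by symbol as the 3 receptors (*Axl*, *Mertk* and *Tyro3*) and the 2 proteins that bridge them to dying cells (*Gas6* and *Pros1*). All 5 were found among the 55487 genes of the count table, and all 5 passed the filter on low counts, which kept 16908 genes, *Tyro3* only through the ARG1+ libraries. Microglia were sorted from the basal forebrain and striatum of YARG reporter mice at postnatal day 13, an untreated line in which YFP follows the stop codon of *Arg1*, so that both populations carry the same reporter allele. The sort took cells negative for CD206 and positive for CX3CR1, and divided them by YFP into ARG1+ and ARG1- microglia. There were 12 libraries, 3 from females and 3 from males of each population, and per the study's methods each holds the pooled tissue of several mice. The populations are those of the YFP sort, and *Arg1* reads in these libraries were too few to check it. Of all 12 libraries, only the ARG1+ females numbered 15 (52 counts) and 8 (2 counts) held any *Arg1* read. The study checked the sort by other means. It reports from RT–qPCR on sorted cells that *Arg1* was restricted to the YFP+ population, and from immunohistochemistry that ARG1 and YFP coincide in cells.

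The receptors are tyrosine kinases at the cell surface. GAS6, encoded by *Gas6*, and protein S, encoded by *Pros1*, bind the phosphatidylserine that dying cells expose through a domain whose glutamates are carboxylated with the help of vitamin K, and bind the receptors with their other end. GAS6 can engage each of the receptors, whereas protein S, best known as an anticoagulant in plasma, engages TYRO3 and MERTK. The signal drives engulfment of the dying cell and restrains inflammatory signalling. In the brain, AXL and MERTK are carried by microglia, which use them to clear dying newborn cells, and TYRO3 is mainly known from neurons.

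Library totals ran from 28356659 to 60625170 counts. Levels are given as CPM, which relates a count to a library total scaled by the trimmed mean of M values (TMM), and the limit of detection was set at 3 counts, or at most 0.106 CPM. ARG1+ and ARG1- microglia were compared by edgeR's quasi-likelihood test with sex as a second term, p values are adjusted by Benjamini–Hochberg over the 16908 genes, and a call is an adjusted p under 0.05. In this comparison 6.44% of all genes tested were called higher and 9.42% called lower in ARG1+ microglia, and the ranges of the populations did not meet in 10% of genes, with ARG1+ on top in 3.48% and ARG1- in 6.56%. Of 8 microglial marker genes, all had counts in every library, 5 were called lower and 1 higher in ARG1+ microglia, and their summed level was 34971 to 43221 CPM in ARG1+ and 48699 to 60451 CPM in ARG1- libraries. In sorted bulk samples, fewer cells of a type cannot be told apart from less RNA per cell.

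Among the receptors, *Axl* and *Mertk* RNA rose in ARG1+ microglia, *Axl* by 2.18-fold and *Mertk* by 1.56-fold, while *Tyro3* was low, at 0 to 2.28 CPM. The ligands *Gas6* and *Pros1* were among the most abundant RNAs of these cells; edgeR called neither, and DESeq2 called *Pros1* higher. Thus 2 of the 5 genes were called higher by edgeR, against 6.44% of all genes tested, and 3 by DESeq2, and 0 were called lower by edgeR, with 1 at an unadjusted p under 0.05 and 0 by DESeq2.

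*Axl* (ENSMUSG00000002602), the receptor that GAS6 binds most tightly and that inflammatory stimuli are known to induce, lies on the minus strand of chromosome 7 from 25757273 to 25788705 in GRCm38. Its level was 59.3 to 79.7 CPM with a median of 71.7 in the 6 ARG1- libraries. In the 6 ARG1+ libraries it was 123 to 179.8 CPM with a median of 149. Every ARG1+ library lay above every ARG1- library, as for 3.48% of all genes, and the lowest ARG1+ value was that of female replicate 7. The means were 152 ± 20.8 and 69.8 ± 7.70 CPM (SD, n = 6 each), a log2 fold change of 1.12 (SE 0.11, 95% interval 0.88 to 1.37, adjusted p = 0.000275 by edgeR's quasi-likelihood test). The call held in all 12 fits that left out 1 library, with log2 fold changes of 1.08 to 1.21. Within females alone *Axl* was called (log2 1.15, adjusted p = 0.0283). Within males the change was as large, at log2 1.11 (SE 0.15), with an adjusted p of 0.0715 in edgeR's fit, in which 1 gene of the whole table was called. The study itself names *Axl* among the genes high in these ARG1+ libraries, so its direction here is not independent evidence.

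*Mertk* (ENSMUSG00000014361), the receptor through which macrophages engulf dying cells under resting conditions, lies on the plus strand of chromosome 2 from 128698956 to 128802894. It had 289 to 494 CPM with a median of 417 in ARG1- libraries. In ARG1+ libraries it had 483 to 769 CPM with a median of 630.1. The populations overlapped by a narrow margin, since ARG1+ male replicate 11 (483 CPM) was below ARG1- female replicate 2 (494 CPM), and the other 5 ARG1+ libraries were above all ARG1- libraries. The means were 639.9 ± 119 and 411 ± 72.2 CPM, a log2 fold change of 0.64 (SE 0.15, 95% interval 0.31 to 0.97, adjusted p = 0.0136 by edgeR). It stayed past the limit in all 12 fits without 1 library. It did not within females alone (log2 0.47, adjusted p = 0.0790 by edgeR) or within males alone (log2 0.82, adjusted p = 0.125). Nor did it without the libraries with replicate numbers 13 to 16 in the labels, 1 in each group (log2 0.51, adjusted p = 0.100). That subset is called libraries 1 to 12 below, and the labels do not say what the numbers stand for. Each of these subsets holds fewer libraries.

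**Figure D1:**
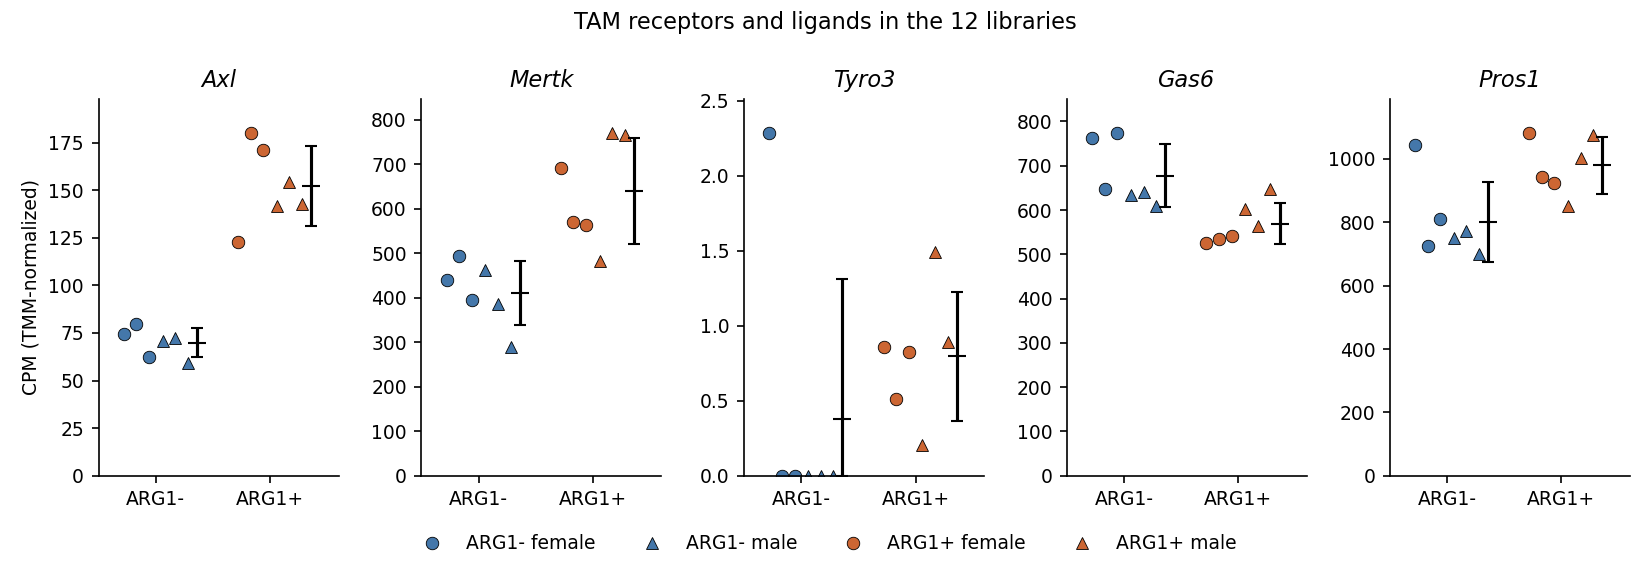
The vertical axes show CPM of each gene in the 12 libraries (circles, females; triangles, males; blue, ARG1-; orange, ARG1+), and black marks are the mean ± SD of the 6 libraries of a population, with the SD of *Tyro3* in ARG1- microglia drawn only down to 0. *Axl* separates the populations without overlap, *Mertk* with 1 ARG1+ library (483 CPM) below 1 ARG1- library (494 CPM), and *Tyro3* was at 0 in 5 ARG1- libraries and at 2.28 CPM in the other.

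The sequences before the transcription starts of the receptors that were called are shown because motifs in them can be set beside the factors measured below. They are the 250 bases before the start of the RefSeq transcript in GRCm38.p6, printed 5′ to 3′ on the strand of the gene, chr7:25788734-25788983 (minus strand) for *Axl* and chr2:128698665-128698914 (plus strand) for *Mertk*. Capitals mark GC boxes (GGGCGG on either strand), the letters that SP1 and SP3 are known to bind.
Axl: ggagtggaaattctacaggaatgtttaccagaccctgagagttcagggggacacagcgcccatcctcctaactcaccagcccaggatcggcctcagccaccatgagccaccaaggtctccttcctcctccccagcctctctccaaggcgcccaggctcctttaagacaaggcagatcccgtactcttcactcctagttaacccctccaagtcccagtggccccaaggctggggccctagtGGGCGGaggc
Mertk: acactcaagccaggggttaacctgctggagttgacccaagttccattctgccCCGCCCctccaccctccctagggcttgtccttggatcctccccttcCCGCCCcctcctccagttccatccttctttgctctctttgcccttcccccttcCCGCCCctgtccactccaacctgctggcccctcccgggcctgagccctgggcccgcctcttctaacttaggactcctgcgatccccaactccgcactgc
The *Axl* window held 1 GC box, which began 10 bases before the start, and the *Mertk* window held 3, which began 198, 152 and 99 bases before it. The windows of *Tyro3*, *Gas6* and *Pros1* held 3, 4 and 5. A GC box stood in 32.7% of 32851 RefSeq promoter windows of the same length. The AP-1 motif TGANTCA (6.75% of windows), the PU.1 motif GAGGAAGT (2.44%) and the nuclear receptor element AGGTCA (14%), each searched on both strands, were in none of the 5 windows. A match is a run of letters and does not show that a factor binds there, and a missing match says only that these letters are not in the window.

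*Tyro3* (ENSMUSG00000027298; plus strand of chromosome 2 from 119797733 to 119818104) had few reads in any library. In ARG1+ microglia it had 27, 15 and 29 counts in the females and 9, 71 and 30 in the males, or 0.205 to 1.49 CPM. In ARG1- microglia it had 0 counts in 5 libraries and 76 counts (2.28 CPM), its highest level in the series, in female replicate 1. It was thus detected in all 6 ARG1+ libraries and in 1 of 6 ARG1- libraries. With all libraries the fitted log2 fold change was 2.84 with an SE of 2.17 (adjusted p = 0.429 by edgeR), so that no difference was detectable. Without ARG1- female replicate 1 the ARG1+ mean was 10.1 times the limit of 3 counts per library, and the adjusted p was 0.00512 by edgeR. Since *Tyro3* passed the filter only through the ARG1+ libraries, that p is not read as support for a difference.

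More genes showed such a pattern on the ARG1+ side than on the ARG1- side. A count in all 6 ARG1+ libraries with 0 in at least 5 of the 6 ARG1- libraries was found for 110 genes (0.651% of those tested), and the opposite pattern for 4 genes (0.0237%). At equal depth, 18933 to 21734 genes were detected in ARG1+ libraries and 17624 to 19367 in ARG1- libraries. The summed level of 8 neuronal marker genes was 2.32 to 7.95 CPM in ARG1+ and 4.26 to 13.1 CPM in ARG1- libraries, with the highest value in ARG1- female replicate 1, the library with the 76 *Tyro3* counts. The part of either in the *Tyro3* counts was not tested.

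*Gas6* (ENSMUSG00000031451), on the minus strand of chromosome 8 from 13465374 to 13494490, ranked 174 of the 16908 genes by mean CPM. Its level was 610.1 to 773 CPM with a median of 644 in ARG1- libraries. In ARG1+ libraries it was 526 to 648 CPM with a median of 554. The ranges overlapped: 5 of the 6 ARG1+ libraries lay below all ARG1- libraries, and ARG1+ male replicate 16 (648 CPM) did not. The means were 569.5 ± 46.8 and 678 ± 70.6 CPM, a log2 fold change of -0.25 (SE 0.088, 95% interval -0.44 to -0.059). The unadjusted p was 0.0145 and the adjusted p 0.0754 by edgeR, which misses the limit. *Gas6* shares 34 of its 2548 exon bases with *Tmem255b* on the opposite strand (554 to 1974 counts, against 15703 to 45347 for *Gas6*), and the kit used does not mark strand.

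The lowest *Gas6* values in the series were those of the 3 ARG1+ female libraries. The 3 ARG1- female libraries had 762, 647 and 773 CPM, and the 3 ARG1+ female libraries had 526, 535 and 542 CPM. In males, the ARG1- libraries had 634, 641 and 610 CPM and the ARG1+ libraries 601, 565 and 648 CPM. The female groups did not overlap and the male groups did. The change was log2 -0.43 in females (SE 0.11, adjusted p = 0.0607 by edgeR) and -0.058 in males (SE 0.11, adjusted p = 0.821). Tested directly, the difference between the sexes in this change (interaction) was log2 -0.39, SE 0.14, adjusted p = 0.486 by edgeR, so it does not stand after adjustment.

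*Pros1* (ENSMUSG00000022912), on the plus strand of chromosome 16 from 62854307 to 62929346, was the most abundant member by CPM and ranked 108. It had 701 to 1045 CPM with a median of 761 in ARG1- libraries. In ARG1+ libraries it had 851 to 1081 CPM with a median of 973. The highest ARG1- value, in female replicate 1, stood apart from the other 5, which were between 701 and 809 CPM and below all 6 ARG1+ values. The means were 979.6 ± 90.9 and 801 ± 125 CPM, a log2 fold change of 0.30 (SE 0.10, 95% interval 0.075 to 0.52, adjusted p = 0.0692 by edgeR). Whether *Pros1* was called depended on the analysis: without ARG1- female replicate 1 the log2 fold change was 0.38 (adjusted p = 0.0106), and with DESeq2's Wald test it was 0.34 (adjusted p = 0.0108).

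Levels of different genes were compared per length, as CPM per kilobase of annotated exon. Over the 12 libraries the order was *Gas6* (245 ± 31.5), *Pros1* (218 ± 34.3), *Mertk* (121 ± 35), *Axl* (22.1 ± 9.04) and *Tyro3* (0.0949 ± 0.117; mean ± SD, n = 12). The ligands did not differ beyond their spread, with 207 to 303 for *Gas6* and 171 to 264 for *Pros1*, and with the length of the longest transcript in place of all exons *Pros1* came first, at 269. *Mertk* (66.8 to 177) reached the lower end of the *Pros1* range. *Axl* (11.8 to 35.7) stayed below *Mertk* in every library, and *Tyro3* (0 to 0.368) below *Axl*.

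**Figure D2:**
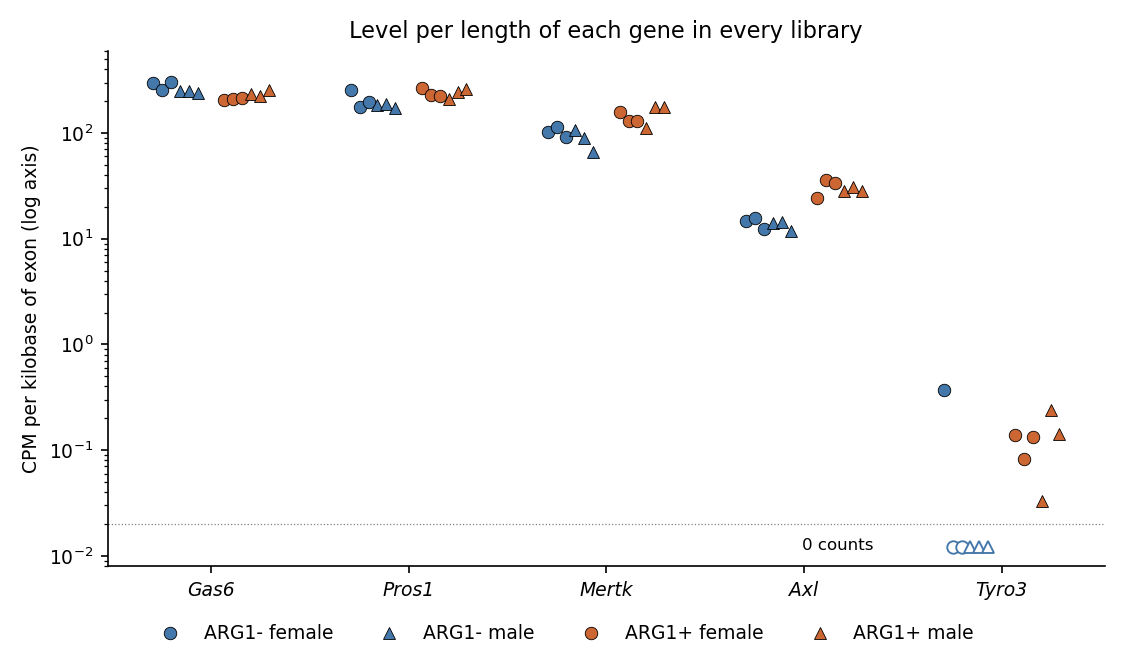
The log axis shows CPM per kilobase of exon for each gene in the 12 libraries, ordered by mean level (circles, females; triangles, males; blue, ARG1-; orange, ARG1+), and open symbols under the dotted line are libraries with 0 counts. Both ligands sit above 171 in every library, *Mertk* between 66.8 and 177, *Axl* between 11.8 and 35.7, and *Tyro3* at or below 0.368.

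Within a library, ratios of these levels do not depend on its scaling, whereas summed levels do. Both are given as descriptions with no test. The populations did not overlap in 10% of single genes tested, and no such share was computed for ratios or sums. The summed level of the 3 receptors was 178 ± 26.3 (range 139.5 to 208) CPM per kilobase in ARG1+ and 109 ± 18 (range 78.5 to 129.8) in ARG1- libraries, and the ranges did not overlap. *Mertk* made up 82.6 ± 3.76 (range 78.6 to 86.6) percent of it in ARG1+ and 87 ± 1.29 (range 85 to 88.3) percent in ARG1- libraries. The ratio of *Mertk* to *Axl* was 4.99 ± 1.32 (range 3.67 to 6.52) in ARG1+ and 6.81 ± 0.738 (range 5.67 to 7.57) in ARG1- libraries, which overlap. *Mertk* was the main receptor RNA of both populations.

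The summed level of the 2 ligands was close to equal on average, at 463 ± 30.0 (range 439 to 518) in ARG1+ and 462 ± 54.8 (range 411 to 555) CPM per kilobase in ARG1- libraries. The ratio of *Gas6* to *Pros1* was 0.939 ± 0.115 (range 0.781 to 1.13) in ARG1+ and 1.37 ± 0.121 (range 1.17 to 1.53) in ARG1- libraries, without overlap, though edgeR called neither gene. By the length of all exons *Gas6* exceeded *Pros1* in every ARG1- library, and by that of the longest transcript in all but female replicate 1 (299 and 316 CPM per kilobase). The ratio of receptors to ligands was 0.383 ± 0.0425 (range 0.314 to 0.446) in ARG1+ and 0.237 ± 0.0439 (range 0.191 to 0.301) in ARG1- libraries, again without overlap.

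**Figure D3:**
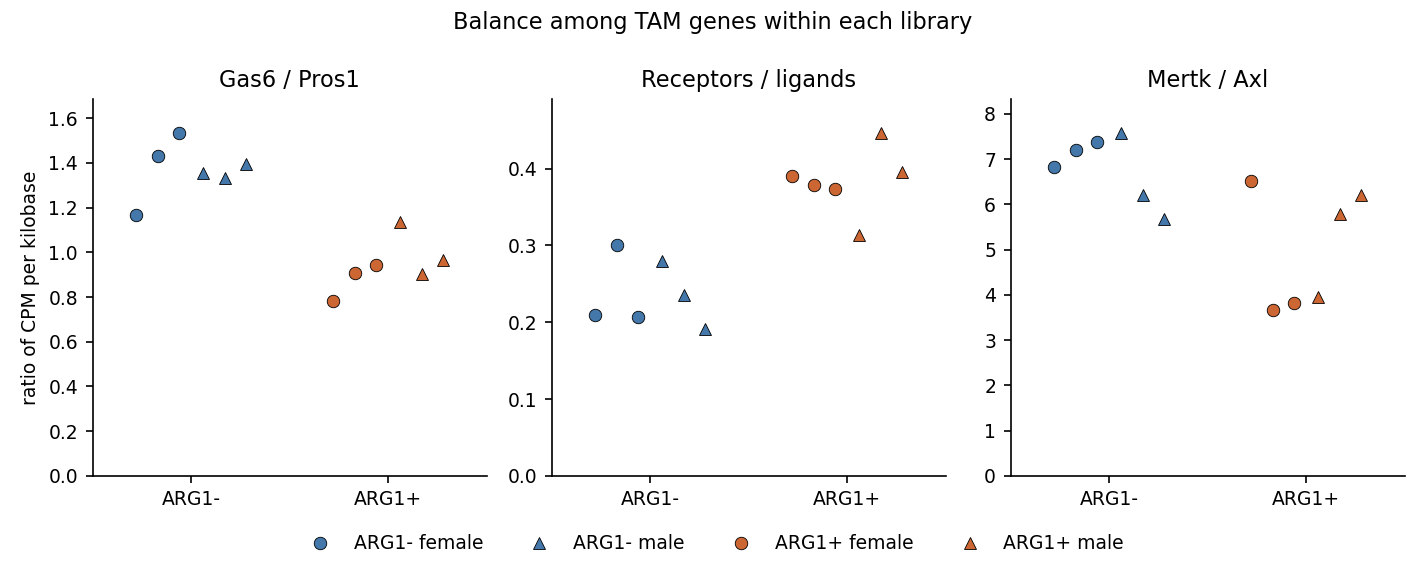
Each panel shows a ratio of levels (CPM per kilobase of exon) within each of the 12 libraries, by population (circles, females; triangles, males; blue, ARG1-; orange, ARG1+). The ratio of *Gas6* to *Pros1* was 0.781 to 1.13 in ARG1+ and 1.17 to 1.53 in ARG1- libraries, the ratio of receptors to ligands 0.314 to 0.446 and 0.191 to 0.301, and the ratio of *Mertk* to *Axl* overlapped between populations.

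The design also allows females to be compared with males within each population, where 0.0946% of all genes tested were called in ARG1- and 0.0355% in ARG1+ microglia, and 0% in the interaction. None of the 5 genes was called by edgeR in any of these 3 contrasts or by DESeq2, and at an unadjusted p under 0.05 there were 2 in ARG1- microglia (10% of all genes), 0 in ARG1+ microglia (3.12%) and 2 in the interaction (9.32%), in both cases *Gas6* and *Tyro3*. For *Gas6* in ARG1- microglia the difference of females minus males did not pass adjustment (log2 0.21, SE 0.096, adjusted p = 0.498), and the *Tyro3* value rests on the 76 counts of ARG1- female replicate 1. For *Axl* the difference of females minus males was log2 0.095 in ARG1- microglia (95% interval -0.26 to 0.45) and 0.11 in ARG1+ microglia (-0.25 to 0.47). For *Mertk* it was 0.22 (-0.23 to 0.67) and -0.15 (-0.60 to 0.31). For *Pros1* it was 0.22 (-0.093 to 0.52) and 0.0091 (-0.30 to 0.32). These intervals are wide enough to hold differences of the size seen for *Gas6*.

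**Figure D4:**
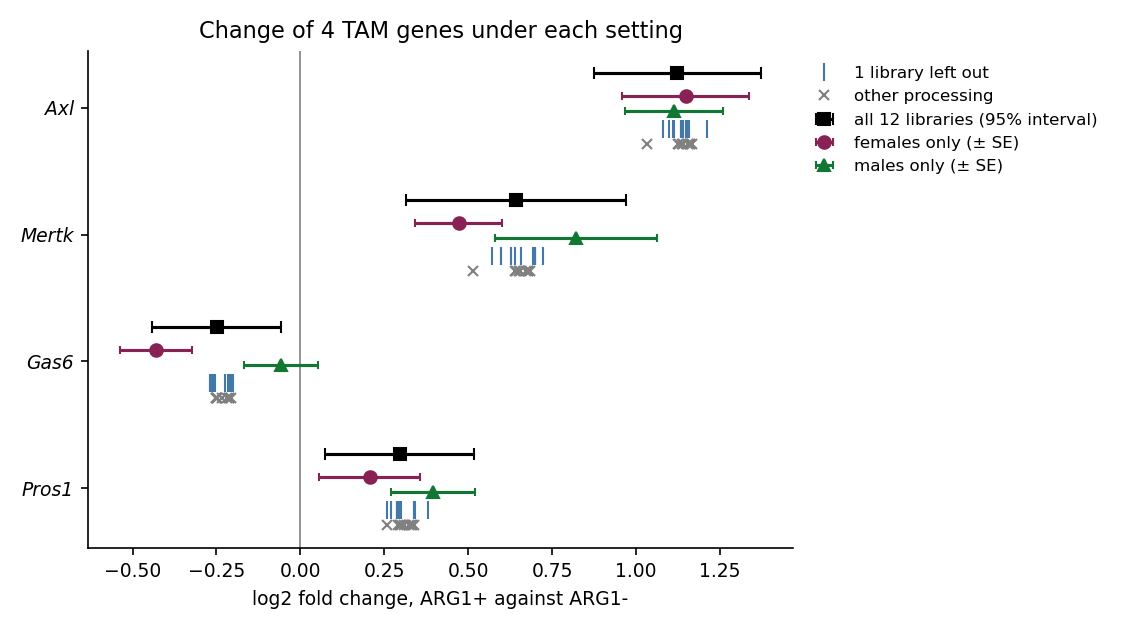
The horizontal axis shows the log2 fold change of ARG1+ against ARG1- microglia for 4 genes: with all 12 libraries (squares, 95% interval), in females or males alone (circles and triangles, ± SE), without each library in turn (blue ticks) and under the other processing choices (grey crosses). *Axl* lies between 1.03 and 1.21 throughout, *Mertk* between 0.47 and 0.82, and *Gas6* is at -0.43 in females and -0.058 in males, a difference that was not called; *Tyro3* is left out because 5 ARG1- libraries had 0 counts.

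The genes whose levels followed each member most closely over the 12 libraries were sought among protein-coding genes of at least 10 CPM on average (8551 genes, or 8552 for *Tyro3*). Likeness was the Pearson correlation of log2 CPM, given first over all 12 libraries and then after the 4 group means were removed, and the libraries share their depth and RNA quality across genes. For *Axl* they were *C3ar1* (0.97 and 0.57), *Anxa5* (0.96 and 0.56), *Ccnl2* (0.95 and 0.43). For *Mertk* they were *Etv6* (0.96 and 0.97), *Slc7a8* (0.96 and 0.95), *Gon4l* (0.96 and 0.87). For *Gas6* they were *Tmem255b* (0.96 and 0.79), *Adprh* (0.93 and 0.67), *Kcnk12* (0.93 and 0.60), the leading gene being the neighbour that shares exon bases with it. For *Pros1* they were *Emc1* (0.97 and 0.94), *Gpr155* (0.96 and 0.90), *Mfhas1* (0.93 and 0.88). For *Tyro3*, at its low counts, they were *Myo1c* (0.95 and 0.91), *Pros1* (0.94 and 0.85), *Mfhas1* (0.92 and 0.85). Both *Tyro3* and *Pros1* had their highest ARG1- value in female replicate 1 (2.28 and 1045 CPM). How far the values found for these 2 genes rest on that library was not tested. The likeness of the genes found for *Axl* was lower within groups, whereas that of the genes found for *Mertk* and *Pros1* remained above 0.86. All were picked for the highest correlation over these same 12 libraries, so their values are high by selection. How far the contrast between members follows from that selection was not tested.

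Among the members themselves, *Axl* and *Mertk* correlated at 0.79 over the 12 libraries and 0.19 within groups. For *Axl* and *Gas6* the values were -0.71 and -0.20. For *Mertk* and *Pros1* they were 0.77 and 0.45. For the ligands, *Gas6* and *Pros1*, they were -0.22 and 0.51, of opposite sign.

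Libraries of the 2 populations also differed in other ways. The summed level of 8 nuclear or intron-retaining RNAs was 3968 to 7293 CPM in ARG1+ and 1724 to 3646 CPM in ARG1- libraries, without overlap, and 5 of the 8 were called higher. *Ccnl2*, named above for its likeness to *Axl*, is among them. The part of this difference in the *Axl* and *Mertk* values was not tested. Border macrophages, which the CD206 gate was meant to remove, had low defining markers: *Lyve1*, *Cd163* and *Ccl8* were at 0 in 10, 11 and 10 of the 12 libraries. *Cbr2* had counts in all 12 (1.99 CPM in ARG1+ and 3.40 CPM in ARG1- microglia), and *Pf4* was at 0 in 1 (1.03 CPM in ARG1+ and 0.564 CPM in ARG1- microglia). *Ms4a7* and *F13a1* were each at 0 in 4, with 2.73 CPM in ARG1+ and 0.353 CPM in ARG1- microglia for *Ms4a7* and 1.93 CPM in ARG1+ and 2.79 CPM in ARG1- microglia for *F13a1*, and none of the 5 tested border macrophage markers was called by edgeR, at an unadjusted p under 0.05 (0) or by DESeq2 (0). The gene of CD206 itself, *Mrc1*, had 147 CPM in ARG1+ and 121 CPM in ARG1- microglia (log2 0.26, adjusted p = 0.371 by edgeR). The summed level of the 8 border macrophage markers was 111 to 237 CPM in ARG1+ and 106 to 141 CPM in ARG1- libraries. Endothelial markers summed to 44.9 to 83.6 CPM in ARG1+ and 29.8 to 58.1 CPM in ARG1- libraries, mostly *Pecam1*, and *Cldn5* was at 0 in all 12. *Kdr* (3.76 CPM in ARG1+ and 1.13 CPM in ARG1- microglia) and *Flt1* (2.38 and 0.551 CPM) were higher in ARG1+ microglia on average. *Cdh5* (0.751 and 1.22 CPM, with counts in all 12) and *Slco1a4* (0.280 and 0.951 CPM) were lower. Of 5 tested, 0 were called by edgeR, 1 at an unadjusted p under 0.05 and 1 by DESeq2. Astrocyte markers summed to 130.2 to 152 CPM in ARG1+ and 179 to 224 CPM in ARG1- libraries, mostly *Slc1a3*. *Slc1a3* was called lower (131 CPM in ARG1+ and 176 CPM in ARG1- microglia, adjusted p = 0.00817 by edgeR). *Gfap* (3.22 and 1.17 CPM) and *Aldh1l1* (0.983 and 0.399 CPM) were higher in ARG1+ microglia on average, and the other members lower. Of 8 tested, 1 was called by edgeR, 2 at an unadjusted p under 0.05 and 2 by DESeq2.

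Of 8 immediate early genes that cell dissociation can induce, 7 were tested and 2 rose, *Egr1* (19.4 CPM in ARG1+ and 7.87 CPM in ARG1- microglia, adjusted p = 0.00825 by edgeR) and *Atf3* (32.9 CPM in ARG1+ and 17.6 CPM in ARG1- microglia, adjusted p = 0.0401), and the list summed to 316 to 375 CPM in ARG1+ and 246 to 406 CPM in ARG1- libraries. Among monocyte markers *Plac8* fell (1.32 CPM in ARG1+ and 6.75 CPM in ARG1- microglia, adjusted p = 0.00466 by edgeR), while *Ly6c2* was at 0 in 11 libraries and *Chil3* in all 12. *Ccr2* (2.72 CPM in ARG1+ and 2.71 CPM in ARG1- microglia) and *S100a4* (0.786 and 0.807 CPM) had counts in all 12 and were not called. Among erythroid genes *Hbb-bt* was called lower (0.0149 CPM in ARG1+ and 0.727 CPM in ARG1- microglia), and the list summed to 0 to 3.39 CPM in ARG1+ and 3.69 to 17.7 CPM in ARG1- libraries. Oligodendrocyte lineage markers summed to 57.1 to 123 CPM in ARG1+ and 86 to 179 CPM in ARG1- libraries, and 0 of 7 tested were called by edgeR, 3 at an unadjusted p under 0.05 and 1 by DESeq2. The part of these differences in the TAM values was not tested.

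The other genes of TAM signalling and of the clearance of dying cells were described from 10 lists by role, 111 genes of which 91 were tested. Of these, 13 were called higher (14.3%, against 6.44% of all genes tested) and 6 lower (6.59%, against 9.42%). *Prrg1*, *Prrg4* and *Pparg*, 3 of the 13, had no count in ARG1- libraries and passed the filter only through the ARG1+ libraries, which fixed their direction. Of the 80 genes that passed it in each population alone, 10 rose (12.5%, against 6.04% of 14141 such genes) and 6 fell (7.5%, against 11.1%), with a median log2 fold change of 0.15 against 0.0057. Each call held in all 12 fits without 1 library unless a smaller number is given at the gene. For *Prrg1*, *Prrg4* and *Pparg* this is not read as support, since the filter fixed their direction.

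Of 2 tested other ligands, *Lgals3*, which encodes the MERTK-binding galectin-3, rose, with 7.68 ± 1.48 CPM in ARG1+ and 1.90 ± 1.03 CPM in ARG1- libraries (log2 change 2.01, SE 0.41, adjusted p = 0.00666 by edgeR). The study singled out *Lgals3* too in these libraries, so its direction is not independent. *Tub* had 0.147 and 0.228 CPM (adjusted p = 0.573), and *Tulp1*, named after its values were seen, was at 0 throughout. Of the 8 genes that carboxylate or process the ligands, 1 fell and 7 did not pass. *Vkorc1*, which recycles the vitamin K that carboxylation consumes, fell, with 35.8 ± 7.37 CPM in ARG1+ and 54.1 ± 13 CPM in ARG1- libraries (log2 change -0.58, SE 0.17, adjusted p = 0.0395), and was called in 2 of the 12 fits that left out 1 library (adjusted p up to 0.111). The most abundant of this list were *Calu*, with 297 ± 33.5 CPM in ARG1+ and 332 ± 92.6 CPM in ARG1- libraries (adjusted p = 0.582), and the protease gene *Furin*, with 123 ± 32.6 CPM in ARG1+ and 80.2 ± 30.0 CPM in ARG1- libraries (adjusted p = 0.0912).

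Of 13 other genes for proteins with the carboxylated domain, 5 were tested, 2 were called higher and 1 fell. *Prrg1* and *Prrg4*, which encode membrane proteins of this family, were without counts throughout the ARG1- libraries. Their mean ARG1+ levels, low at 2.85 ± 3.07 and 0.678 ± 0.509 CPM, were 35.2 and 8.40 times the limit of 3 counts per library. That limit covers counting error only, so these values do not bound the fold change in the cells. Without ARG1+ female replicate 15, the highest library, the value for *Prrg1* was 20.3 times the limit. For *Prrg4*, which had 0 counts in its lowest ARG1+ library, it was 6.19 times the limit without ARG1+ male replicate 11. Both genes passed the filter only through the ARG1+ libraries, so their calls are not read as support for a difference. *F9*, the gene of coagulation factor IX, fell, with 16.4 ± 7.57 CPM in ARG1+ and 30.7 ± 5.61 CPM in ARG1- libraries (log2 change -0.94, SE 0.29, adjusted p = 0.0431), and was called in 2 of the 12 fits that left out 1 library (adjusted p up to 0.106). *Prrg2* had 11.3 and 14.3 CPM (adjusted p = 0.402).

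Of the 5 genes that shed receptors from the cell surface or control shedding, 1 rose. *Adam17*, which encodes a protease that cleaves AXL and MERTK, had 536 ± 86.8 CPM in ARG1+ and 412 ± 40.5 CPM in ARG1- libraries (log2 change 0.38, SE 0.12, adjusted p = 0.0430), and it was called in 3 of the 12 fits that left out 1 library (adjusted p up to 0.0903). *Adam10*, the more abundant related protease gene, had 710.1 ± 122 CPM in ARG1+ and 627 ± 81.2 CPM in ARG1- libraries (adjusted p = 0.357). Of 18 tested genes of proximal signalling, 1 rose. *Pik3r1*, a regulatory subunit of PI3 kinase, had 96.3 ± 15.4 CPM in ARG1+ and 64.7 ± 12.8 CPM in ARG1- libraries (log2 change 0.57, SE 0.15, adjusted p = 0.0234), with a call in 9 of the 12 fits that left out 1 library (adjusted p up to 0.0598). *Rac1*, the GTPase that moves the membrane during engulfment, had 811 and 809 CPM (adjusted p = 0.982), and *Vav1*, an exchange factor for it, had 661 and 674 CPM (adjusted p = 0.942).

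Of the inhibitors that TAM signals are known to induce and the interferon receptor genes they act with, 6 were tested and 0 were called by edgeR, 0 at an unadjusted p under 0.05 and 0 by DESeq2. The subunits *Ifnar1* and *Ifnar2* had 208 and 193 CPM in ARG1+ microglia and 183 and 172 CPM in ARG1- microglia. *Twist1* and *Twist2*, named after their values were seen, were at 0 in all libraries. Of 10 transcription factors known to act on genes of this system, 1 was called higher and 1 fell. *Pparg*, a nuclear receptor for lipids, was without counts in the ARG1- libraries, so that the ARG1+ level was higher by at least 17.8-fold, at 1.44 ± 0.942 CPM. This bound was 13.8-fold without ARG1+ male replicate 12, the highest library. *Pparg* passed the filter only through the ARG1+ libraries, so its call is not read as support for a difference. *Rxrb*, which encodes 1 of its possible partners, fell, with 79.5 ± 19.6 CPM in ARG1+ and 114 ± 18.3 CPM in ARG1- libraries (log2 change -0.54, SE 0.15, adjusted p = 0.0313 by edgeR). It was called in 6 of the 12 fits that left out 1 library (adjusted p up to 0.0817). *Rxra*, another such partner and named after its values were seen, was higher on average and not called. It had 70.6 ± 18.6 CPM in ARG1+ and 42.7 ± 20.3 CPM in ARG1- libraries (log2 change 0.70, SE 0.29, adjusted p = 0.130 by edgeR). The glucocorticoid receptor gene *Nr3c1* had 159.8 and 151 CPM (adjusted p = 0.663), and *Ets1*, a factor of the ETS family, had 149.5 and 126 CPM (adjusted p = 0.203). The GC box factors *Sp1* and *Sp3*, named here after their values were seen, had adjusted p values of 0.678 and 0.430.

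Other receptors and bridging proteins for dying cells, those for phosphatidylserine among them, moved in both directions, with 3 of 14 tested rising and 2 falling. *Lrp1*, a large endocytic receptor, rose without overlap, with 966 ± 175 CPM in ARG1+ and 474 ± 128 CPM in ARG1- libraries (log2 change 1.02, SE 0.19, adjusted p = 0.00395 by edgeR). *Stab1*, the scavenger receptor stabilin-1, rose, with 431 ± 138 CPM in ARG1+ and 239 ± 75.3 CPM in ARG1- libraries (log2 change 0.82, SE 0.23, adjusted p = 0.0277), and was called in 5 of the 12 fits that left out 1 library (adjusted p up to 0.0621). *Havcr2*, which encodes TIM-3, rose without overlap, with 252 ± 27 CPM in ARG1+ and 176 ± 22.3 CPM in ARG1- libraries (log2 change 0.52, SE 0.11, adjusted p = 0.00791).

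*Trem2*, a microglial lipid receptor, fell, with 1244 ± 161 CPM in ARG1+ and 1634 ± 119 CPM in ARG1- libraries (log2 change -0.40, SE 0.089, adjusted p = 0.0109 by edgeR), in all 12 fits without 1 library. *Cd300a*, an inhibitory receptor and named after its values were seen, fell by 0.30 on the log2 scale (adjusted p = 0.0237) and was called in 7 of the 12 fits that left out 1 library (adjusted p up to 0.0813). *Itgb5*, the integrin subunit that was the most abundant of the list, had 3129 ± 373 CPM in ARG1+ and 3118 ± 487 CPM in ARG1- libraries (adjusted p = 0.975). *Timd4* was at most 5 counts, and *Havcr1* and *Megf10* at 0, in all libraries, and these names too were chosen after the values were seen.

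Of 9 tested genes that expose phosphatidylserine or return it to the inner leaflet, 1 rose: *Atp8a2*, a flippase, had 171 ± 28.4 CPM in ARG1+ and 88 ± 27.4 CPM in ARG1- libraries (log2 change 0.98, SE 0.19, adjusted p = 0.00575 by edgeR). *Tmem30a*, the shared flippase subunit, had 379.6 and 373 CPM (adjusted p = 0.967), and *Atp8a1* had 229 and 167 CPM (adjusted p = 0.0717). Of the 14 genes that digest engulfed cells or export their lipids, 3 rose and 1 fell. The cholesterol exporter *Abca1* rose without overlap, with 499 ± 125 CPM in ARG1+ and 249 ± 39.6 CPM in ARG1- libraries (log2 change 1.0, SE 0.16, adjusted p = 0.00179). Its relative *Abcg1* had 80.8 ± 5.45 CPM in ARG1+ and 49.4 ± 18.8 CPM in ARG1- libraries (log2 change 0.73, SE 0.23, adjusted p = 0.0480), with a call in 1 of the 12 fits that left out 1 library (adjusted p up to 0.0912). The acid lipase *Lipa*, named after its values were seen, rose by log2 0.47 (adjusted p = 0.0191). *Dnase2a*, the nuclease that degrades DNA in lysosomes, fell without overlap, with 79.1 ± 6.85 CPM in ARG1+ and 121 ± 17.5 CPM in ARG1- libraries (log2 change -0.62, SE 0.11, adjusted p = 0.00414). The lysosomal membrane genes *Lamp1* and *Lamp2* had 2280.4 and 1069.8 CPM in ARG1+ microglia and 2115 and 1093 CPM in ARG1- microglia (adjusted p = 0.438 and 0.881).

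**Figure D5:**
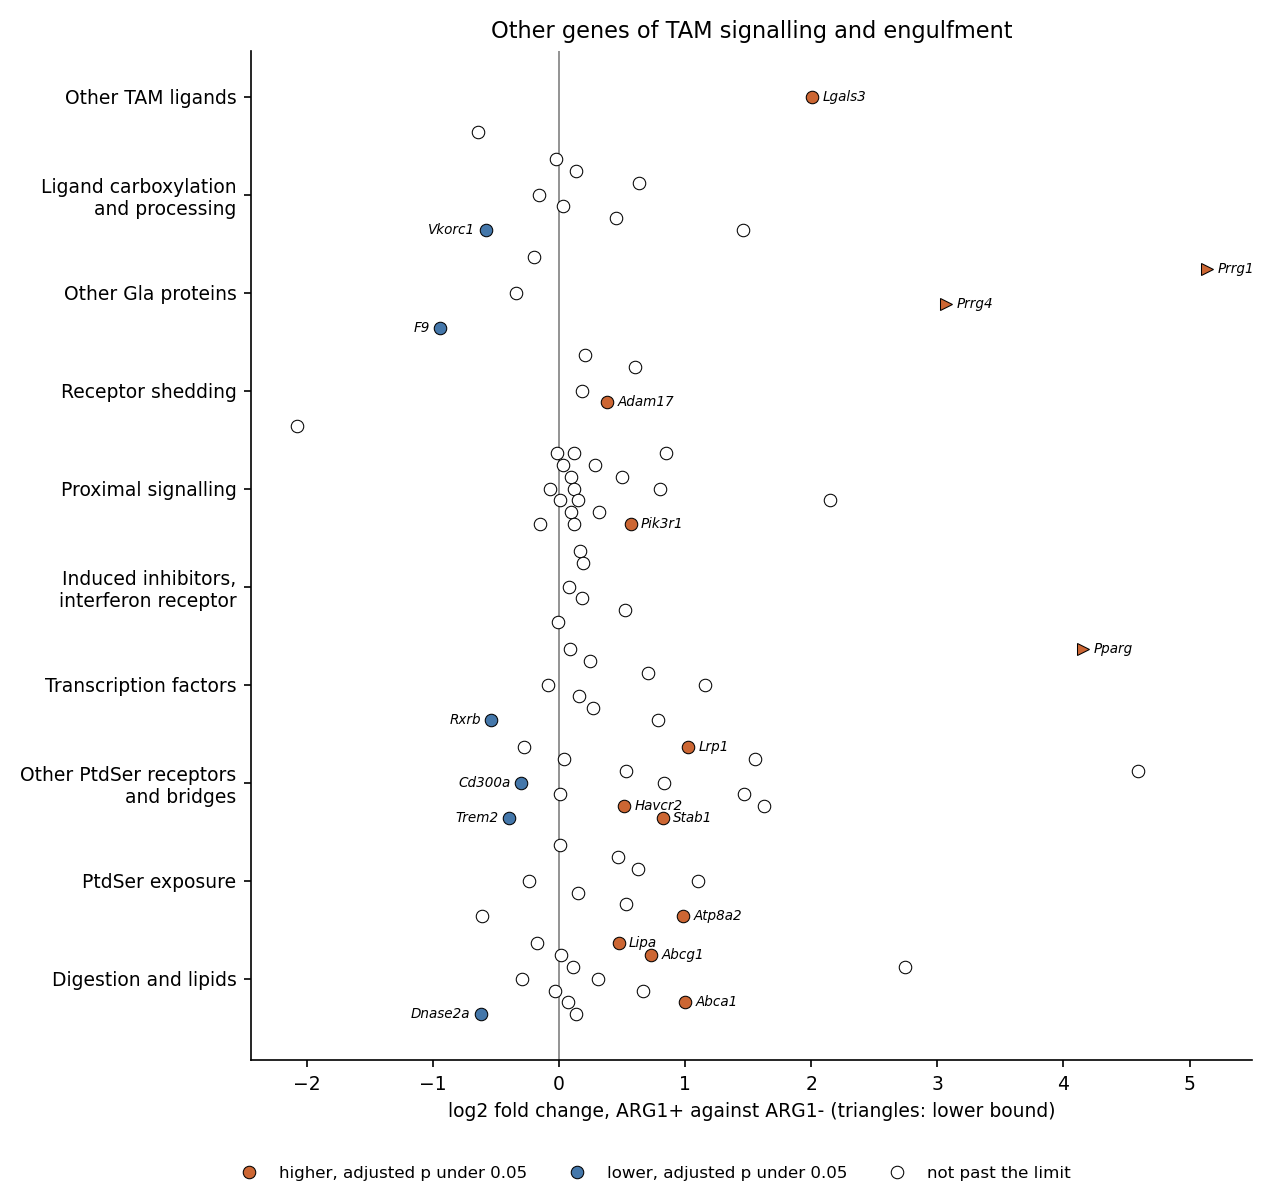
The horizontal axis shows the log2 fold change of ARG1+ against ARG1- microglia for the 91 tested genes of 10 lists (rows; PtdSer, phosphatidylserine), with orange and blue points for the 13 genes called higher and the 6 called lower, open points for the rest, and triangles for lower bounds of genes with no count in ARG1- libraries; vertical spread within a row only separates points. Calls are spread over 9 of the 10 lists, and none of the 6 genes of the inhibitor and interferon receptor list was called.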

How the data were processed

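RNA of microglia sorted by FACS was amplified with SMART-Seq v4, libraries were made with Nextera XT, and single-end reads were sequenced for 3 libraries per sex and population. Per the labels' processing notes and the study's methods, bcl2fastq 2.20.0, STAR 2.6.1d (GRCm38) and featureCounts 1.5.1 were used, and DESeq2 1.28.1 for the authors' own tests. The annotation release and the strand setting are not given in the sources used here. The values the authors deposited are raw counts per gene, with no normalization. Symbols and positions are from GENCODE M21, which matched 55227 of 55487 identifiers (0.0333% of counts unmatched), and promoter windows are from RefSeq.

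Counts were filtered with filterByExpr, normalized by TMM and tested in R 4.3.3 with edgeR 4.0.16 (glmQLFit and glmQLFTest; ARG1 status and sex as terms; the 4 group means for sex contrasts), checked on simulated counts. The SE of a log2 fold change was its size divided by the root of F. Replicate pairs differed by 44.4 to 135 times the degrees of freedom in a chi-square of their counts, so each library is 1 replicate. The p values measure the spread between libraries, in which pools of mice, sorting, amplification and library preparation cannot be told apart. The members, gene lists and tests were chosen with earlier results of these data known. From each list the 3 called genes with the largest fold change and the 2 most abundant are named, and other names are marked; 2 listed genes are not reported here. Alternatives were DESeq2 1.42.0, other scalings and filters, other terms, thinned counts, subsets of libraries and each library left out.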

Additional observations from a re-analysis of the deposited data

Results flagged for a closer look

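Among 28 sets of 6 libraries searched (each gene, each ratio or share and the total counts, in each population), 3 held a library whose distance from the others exceeded Dixon's 95% limit, where chance gives about 1 in 20. All 3 concern ARG1- female replicate 1. Its *Pros1* level of 1045 CPM compares with 809 CPM in the next library. Its *Tyro3* level of 2.28 CPM compares with 0 in the other 5 ARG1- libraries, and the share of *Tyro3* in its receptor RNA (0.316 percent) with 0 as well. Both *Tyro3* flags rest on the same 76 counts. With the other 5 libraries at 0 any count would exceed the limit, so the rate of 1 in 20 does not apply to them. That leaves the *Pros1* flag alone, where 28 sets at this rate would give 1.4. Without ARG1- female replicate 1, 4 of the 5 TAM genes were called higher in ARG1+ microglia, in place of 2, *Tyro3* among them, which passed the filter only through the ARG1+ libraries. The cause was not tested.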

How the results depend on the processing

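No paired analysis was possible because no replicate number of the labels is shared by 2 groups. The study gives litters per sex and sorted both populations from the dissected tissue, so their libraries likely come from the same pools of mice. The labels do not say which libraries share a pool, so the tests take them as independent and any pairing is left unused. *Axl* and *Mertk* were higher and *Gas6* lower in ARG1+ microglia in every fit, *Axl* being past the limit in all but males alone (log2 1.11) and *Mertk* in all but libraries 1 to 12 (0.51), females alone (0.47) and males alone (0.82). *Gas6* stayed short of the limit in all. *Pros1* passed it with DESeq2 size factors (0.33, adjusted p = 0.0396), with at least 10 counts in every library (0.33, adjusted p = 0.0296), with DESeq2 (0.34) and without ARG1- female replicate 1 (0.38), with leave-one-out values of 0.26 to 0.38. *Tyro3* was -0.035 in females alone, and 1.89 to 7.94 with 1 library left out, the highest without ARG1- female replicate 1; it has no value in males alone or with at least 10 counts in every library, where it failed the filter.

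The count of TAM genes called higher (2) was 1 in libraries 1 to 12, 1 in females, 0 in males (3 at an unadjusted p under 0.05) and 2 to 4 with 1 library left out. Pathway genes called higher (13) were 22 with DESeq2, 4 in libraries 1 to 12, 5 in females and 0 in males (23 at an unadjusted p under 0.05). With the genes that passed the filter in each population alone, chosen after seeing the data, they were 10. Those called lower (6) were 2 without the filter, 1 in libraries 1 to 12, 1 in females, 0 in males (2 at an unadjusted p under 0.05), and 2 to 6 with 1 library left out: 2 without ARG1+ female replicate 7 or ARG1+ male replicate 16, and 3 without ARG1- female replicate 1 or 2, ARG1+ female replicate 8 or 15, ARG1- male replicate 6 or ARG1+ male replicate 12. Over all genes, 2682 calls became 4131 with DESeq2, 638 in libraries 1 to 12, 986 in females and 1 in males (3103 at an unadjusted p under 0.05), and 1753 to 2669 with 1 library left out, lowest without ARG1+ male replicate 12. Subsets hold fewer libraries; other causes were not tested.

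No sex contrast of the 5 genes was called with DESeq2 size factors, at least 10 counts in every library, DESeq2 or 1 library left out, the alternatives run for them. Signs turned with 1 library left out for the *Axl* interaction (-0.084 to 0.19), the sex effect in ARG1+ microglia of *Tyro3* (-0.68 to 0.43) and that of *Pros1* (-0.062 to 0.086). Scaling moved the median of all genes by at most 0.036 and the share of calls that were higher from 40.6% to 46.0%. Depth limits *Tyro3*: 3 counts are 0.0495 to 0.106 CPM. These limits cover counting error only.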
